A study of Homo sapiens with 8 samples.

Results

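The accessible chromatin of unchallenged wild-type U2OS cells was described from the sites found in both of its ATAC-seq libraries. A shared site was the union of overlapping peak intervals, by at least 1 bp, of the WT no UV replicates 1 and 2. There were 86255 shared sites, which is 31.4% of the 275097 sites of these 2 peak lists joined and 15.7% of the 548046 sites of all 8 lists of the series. The sites were ranked by strength, the mean of their percentiles of fold enrichment within each list (100 for the strongest interval). Fold enrichment is the height of the read pileup at a peak's summit relative to the local background of the same library.

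U2OS is a human osteosarcoma cell line. The WT no UV group was unedited U2OS in low glucose medium with fetal calf serum, neither irradiated nor otherwise treated before a DNase step that removed DNA of dead cells, and it was sampled as 2 biological replicates of 50000 cells each. The other 6 lists, which came from the WT 3 h post UV group, the ASH1L-/- no UV group and the ASH1L-/- 3 h post UV group (UV-C at 20 J/m2), were used only to ask whether a site was found again. ASH1L-/- cells were made with CRISPR/Cas9 and grown from isolated colonies. All values are those of 1 aneuploid cell line, and no groups were compared.

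Tn5 transposase cuts DNA where nucleosomes are absent or loosely held, so ATAC-seq reads pile up at promoters, enhancers and insulators. Promoters of widely used genes tend to lie in CpG islands and are open in most cell types, whereas distal enhancers differ between cell types and are opened by transcription factors that bind there. In mesenchymal and many cultured cells, AP-1 (dimers of FOS and JUN proteins), TEAD factors (the DNA-binding partners of YAP and TAZ) and RUNX factors are well known for binding such enhancers. NFY, SP/KLF, ETS and NRF1 factors are known for binding near transcription start sites (TSSs).

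The sequences of 6 sites are shown first as examples. They were picked among strong sites because they held letters that recur in the results that follow, so they do not show how common these letters are. All are plus-strand reference sequence of hg38 without any annotated exon base. The first 3 are distal sites, over 1 kb from any annotated TSS, that ranked 10, 22 and 25 among all 86255 sites. They lay in an intron of UBE2E2, which encodes a ubiquitin-conjugating enzyme, in an intron of SGMS2, which encodes a sphingomyelin synthase, and in intergenic sequence whose nearest protein-coding TSS was that of SEMA3D at 302641 bp. Each is 299 bases around the summit, and capitals mark AP-1 letters (TGANTCA), TEAD letters (GGAATG or CATTCC) and RUNX letters (TGTGGTT or AACCACA).
UBE2E2 intron chr3:23567996-23568294: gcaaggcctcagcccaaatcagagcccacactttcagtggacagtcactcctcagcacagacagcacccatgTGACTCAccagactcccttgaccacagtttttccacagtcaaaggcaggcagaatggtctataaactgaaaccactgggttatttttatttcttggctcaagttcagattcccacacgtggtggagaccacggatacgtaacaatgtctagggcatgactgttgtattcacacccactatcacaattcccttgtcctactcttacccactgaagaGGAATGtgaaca
SGMS2 intron chr4:107896217-107896515: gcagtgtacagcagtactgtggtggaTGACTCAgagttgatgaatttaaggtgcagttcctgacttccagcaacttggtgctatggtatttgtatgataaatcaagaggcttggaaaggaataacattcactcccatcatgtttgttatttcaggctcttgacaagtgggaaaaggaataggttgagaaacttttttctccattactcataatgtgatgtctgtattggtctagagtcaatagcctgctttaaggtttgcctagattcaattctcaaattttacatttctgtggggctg
SEMA3D distal chr7:85489548-85489846: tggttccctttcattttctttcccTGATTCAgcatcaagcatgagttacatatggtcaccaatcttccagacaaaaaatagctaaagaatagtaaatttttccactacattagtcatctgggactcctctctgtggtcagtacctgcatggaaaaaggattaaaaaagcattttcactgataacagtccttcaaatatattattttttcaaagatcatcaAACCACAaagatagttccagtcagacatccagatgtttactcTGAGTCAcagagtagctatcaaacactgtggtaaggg
In all 3, the AP-1 letters stood away from the summit itself. They began 77 bases before it at UBE2E2 and 123 bases before it at SGMS2, and at SEMA3D they began 125 bases before and 113 bases after it. The next is the strongest distal site with AP-1 letters in a 100 kb window around LIF, the window with the most shared sites, with the same marks.
LIF window chr22:30235766-30236064: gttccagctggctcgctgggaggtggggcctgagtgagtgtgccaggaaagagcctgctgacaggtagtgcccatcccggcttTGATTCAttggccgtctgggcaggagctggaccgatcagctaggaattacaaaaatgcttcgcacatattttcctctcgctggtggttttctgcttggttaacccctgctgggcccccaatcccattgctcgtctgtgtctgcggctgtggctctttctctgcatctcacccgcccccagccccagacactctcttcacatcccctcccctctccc
The last 2 lie at the promoters of CAMTA1, which encodes a calmodulin-binding transcription activator, and FAM117A, ranked 7 and 9. They run 100 bases to each side of the summit, and capitals mark NFY letters (CCAATCA or TGATTGG), of which each held 2 copies.
CAMTA1 promoter chr1:6785102-6785302: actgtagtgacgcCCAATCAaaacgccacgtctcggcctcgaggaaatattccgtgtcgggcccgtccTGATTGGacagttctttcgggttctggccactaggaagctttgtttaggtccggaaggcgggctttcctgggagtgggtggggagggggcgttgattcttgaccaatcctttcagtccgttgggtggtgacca
FAM117A promoter chr17:49764221-49764421: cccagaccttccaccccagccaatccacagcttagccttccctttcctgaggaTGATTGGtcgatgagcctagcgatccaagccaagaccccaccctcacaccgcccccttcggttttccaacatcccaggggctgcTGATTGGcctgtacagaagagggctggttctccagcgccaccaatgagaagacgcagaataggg

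The 2 lists agreed closely on the strongest sites and poorly on the weak ones. Replicate 1 held 178662 intervals and replicate 2 held 189651, and 50.7% and 46.9% of them overlapped an interval of the other list. Of the intervals in the top 10% of each list, 99.9% and 99.3% were shared, against 17.6% and 14.7% in the bottom 10%. Median fold enrichment was 4.84 and 5.84 in shared intervals and 2.88 and 2.92 in the others. The lists carry no read totals. The lowest background that could be recovered from them, a measure of depth in reads piled up per base, was 2.10 in replicate 1 and 1.74 in replicate 2, so both libraries were of similar depth and weak sites rested on few reads. The recovered pileup had a median of 20 and 23 reads in shared intervals and 9 and 7 in the others, and in the 1000 strongest sites it had a median of 188 and 226.

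Over the shared sites, Spearman's rho between the percentiles of the libraries was 0.794, given as a description over sites that share their libraries and their local backgrounds. The median difference between the 2 percentiles of a site was 7.29 points. Summits of the lists lay a median of 32 bp apart in all sites and 7 bp apart in the 1000 strongest. The map of fold enrichment in both libraries shows the spread of single sites around equal values.

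**Figure D1:**
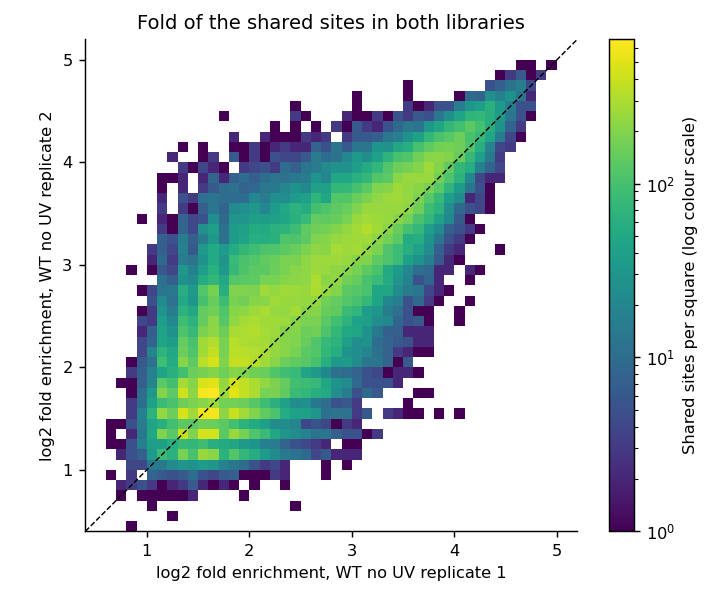
Fold enrichment of the 86255 shared sites in WT no UV replicate 1 (x axis, log2) and replicate 2 (y axis, log2); colour is the number of sites in each square of 0.1 by 0.1 on a log scale, and the dashed line marks equal values. Sites lie in a broad cloud around the line, up to folds of 31.7 and 31.2, with stripes of repeated values at low folds, where pileups are small whole numbers.

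Shared sites were short and covered little of the genome. Their median width was 540 bp (range 150 to 3154 bp), and together they covered 49.7 Mb, 1.71% of the 2911 Mb of determined sequence on chromosomes 1 to 22 and X. All 1000 strongest sites overlapped an interval in each of the 6 other lists, as did 99.9% of the top 10% (8625 sites), 70.0% of all sites and 14.6% of the bottom 10%. No other list held an interval at 2650 sites.

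The strongest sites lay mainly at promoters, and the bulk of sites did not. A promoter site had its summit within 1 kb of the TSS of any annotated transcript of a protein-coding gene, sequence that makes up 4.33% of the genome. Of the 100 strongest sites 77.0% were promoter sites, of the 1000 strongest 61.0%, of the top 10% 41.6%, of all sites 19.8% and of the bottom 10% 13.4%. Ranked within 1 library alone, the 1000 strongest intervals gave 62.0% in replicate 1 and 54.7% in replicate 2. Counting only the annotated start of each gene lowered the shares to 52.8% of the 1000 strongest and 13.0% of all sites. Promoter sequence held 135 sites per Mb, TSS sequence of other genes 55.4, and introns and intergenic sequence 24.8 and 23.3. Of the 4641 sites at other TSSs, 72.7% were nearest to a lncRNA TSS.

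**Figure D2:**
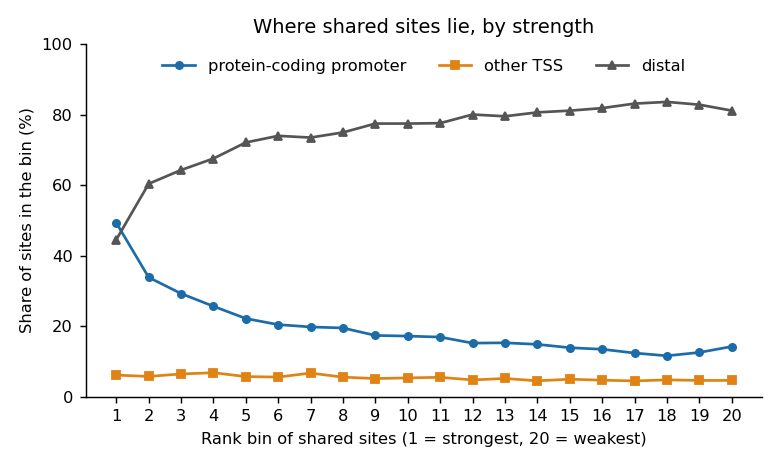
Share of shared sites at protein-coding promoters, at other TSSs and in distal sequence (y axis, percent) in 20 equal rank bins from the strongest to the weakest (x axis). Promoter sites make up 49.3% of the strongest bin and 14.2% of the weakest, and distal sites 44.5% and 81.1%.

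Promoter sites and distal sites differed in base composition as well as in strength. The 17041 promoter sites had a median GC content of 59.7% and 11 CpG within 100 bp of the summit, against 47.3% and 2 CpG in the 64573 distal sites. Their median widths were 620 and 523 bp, and their median percentiles were 82.9 and 72.3. Summits of promoter sites stood just upstream of the TSS, at a median of -41 bp, with 57.6% upstream of it and 53.6% between 200 bp upstream and 100 bp downstream. Distal summits lay a median of 12.2 kb from the nearest TSS of any gene.

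Divergent promoters, with TSSs of protein-coding genes on both strands within 1 kb of 1 summit, were common at the top. They made up 29.0% of the 100 strongest promoter sites, 20.9% of the 1000 strongest, 9.63% of all and 5.40% of the 1000 weakest. The strongest of them served KIAA0319L and NCDN (fold enrichment 25.8 in replicate 1 and 28.1 in replicate 2). Another served the RNA demethylase gene FTO together with the ciliary gene RPGRIP1L (24.98 and 27.05). At such a site the list holds 1 value, which cannot be divided between the genes.

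Among the 25 strongest sites, 16 were promoter sites, 2 were lncRNA TSSs and 7 were distal. The promoter of NT5C3A, which encodes a pyrimidine nucleotidase, had fold enrichments of 28.3 and 28.0 (chr7:33062567-33063444). That of KAT6B, which encodes a histone acetyltransferase, had 26.5 and 29.9 over the tallest pileup of the 25 sites, 677 and 1071 reads (chr10:74826002-74826752). Among the other 14 promoters, CEP97, whose protein sits at centrioles and restrains cilium formation, had 28.0 and 28.0, IFT52 of intraflagellar transport 27.8 and 26.4, WDR75 of ribosome production 24.6 and 27.9, and VCPIP1, which encodes a deubiquitinase, 24.98 and 28.3. The lncRNA TSSs were that of LINC02226, at 27.2 and 29.1, and that of ENSG00000260100, at 25.8 and 27.5. All 25 sites had an interval in each of the 6 other lists.

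The strongest site of all, at 31.7 and 31.2, lay in the transcribed pseudogene POM121L4P on chromosome 22 (chr22:20697200-20697912). Of 4 stretches of 50 bases around its summit, the length of 1 read, 3 occurred once in the reference and 1 occurred in 5 places. At FAM72A, a gene with near-identical copies, and near XDH, 3 of the 4 stretches also occurred once. The remaining stretch occurred in 4 places at FAM72A and in 438 near XDH. Part of the sequence of these 3 sites is thus not unique, and their place is less certain. All stretches of the other 22 of the 25 strongest sites occurred once.

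Distal sites reached the same heights as the best promoters, but fewer did so. The intron of SYT14, which encodes a synaptotagmin, held the second strongest site, at 28.1 in both libraries (chr1:210052140-210052774). The UBE2E2 intron had 25.4 and 28.0, the site 256030 bp from STAC had 27.3 and 26.5, the SGMS2 intron 24.3 and 29.9, the SEMA3D site 24.6 and 27.2, and an intron of CAMTA1 24.0 and 28.7. Sites near MRTFA, whose protein is a coactivator of serum response factor, and near MRPL48 followed, at 24.5 and 26.3 and at 24.0 and 26.3. Distal sites made up 17.0% of the 100 strongest sites and 32.1% of the 1000 strongest.

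AP-1 letters were the most common in the strongest distal sites and, of the 15 motifs searched, had the widest gap in percent between the strongest and the weakest. Matches on either strand were counted within 100 bp of the summit, beside the same count in flanks of the same length, 2 kb away from distal sites. AP-1 letters occurred in 42.9% of the 1000 strongest distal sites (37.6% by replicate 1 alone and 47.0% by replicate 2 alone), 25.02% of all distal sites, 125 of the 1000 weakest, 9.93% of distal intervals found in only 1 list and 5.93% of flanks. TEAD letters occurred in 27.7%, 19.3%, 16.2%, 12.9% and 10.6% of these sets in the same order. RUNX letters occurred in 14.0%, 7.78%, 6.80%, 4.70% and 3.55%. Letters of CTCF, the insulator protein (CCANNAGGG), showed no such gradient, at 3.80%, 4.68%, 4.90%, 4.33% and 2.96%. GATA letters (AGATAA), of factors best known from blood, were rarer in sites than in flanks, at 6.70% of the 1000 strongest and 12.8% of flanks. POU letters (ATGCAAAT) were also rarer, at 0.988% of all distal sites and 1.72% of flanks. HNF4 letters (CAAAGTCCA) were not, at 0.276% and 0.254%. The part of base composition in the GATA, POU and HNF4 shares was not tested. A match is a run of letters and does not show that a factor was bound.

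**Figure D3:**
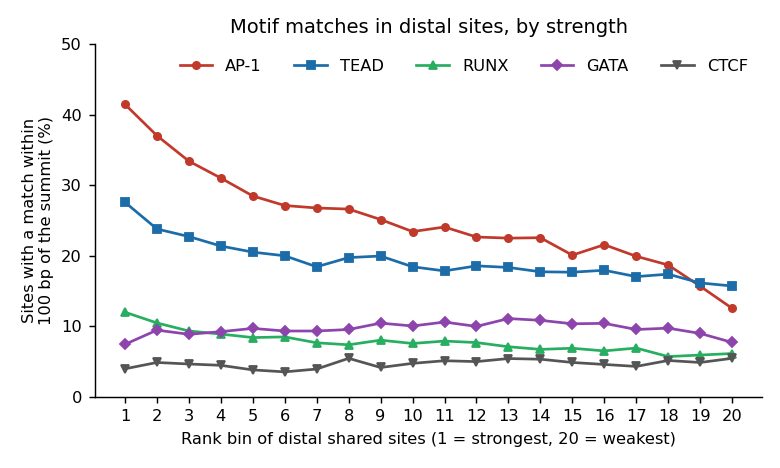
Share of distal shared sites with AP-1, TEAD, RUNX, GATA or CTCF letters within 100 bp of the summit (y axis, percent) in 20 equal rank bins from the strongest to the weakest distal sites (x axis). AP-1 letters go from 41.4% of the strongest bin to 12.54% of the weakest, whereas CTCF letters stay between 3.53% and 5.45%.

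AP-1 and CTCF letters were densest to either side of the summits. AP-1 matches began at a mean of 21.4 per 1000 distal sites in each 20 bp next to the summit, 42.9 per 1000 between 100 and 120 bp from it on each side, and 6.47 per 1000 beyond 400 bp. CTCF matches were also highest between 100 and 120 bp, at 8.80 per 1000, with 4.58 next to the summit and 3.70 beyond 400 bp. TEAD matches stood at 20.9 per 1000 next to the summit, 24.4 at their highest, between 80 and 100 bp, and 11.7 beyond 400 bp. RUNX matches stood at 7.63, 9.07 between 60 and 80 bp, and 3.71 beyond 400 bp. GATA matches were at 11.7 next to the summit and 14.1 beyond 400 bp. A window of 100 bp thus ended where AP-1 matches were densest. Within 200 bp, a window chosen after this profile was seen, AP-1 letters occurred in 67.1% of the 1000 strongest distal sites, 46.4% of all distal sites, 22.5% of the 1000 weakest and 11.5% of flanks, and CTCF letters in 9.90%, 10.6%, 10.4% and 5.75%.

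**Figure D4:**
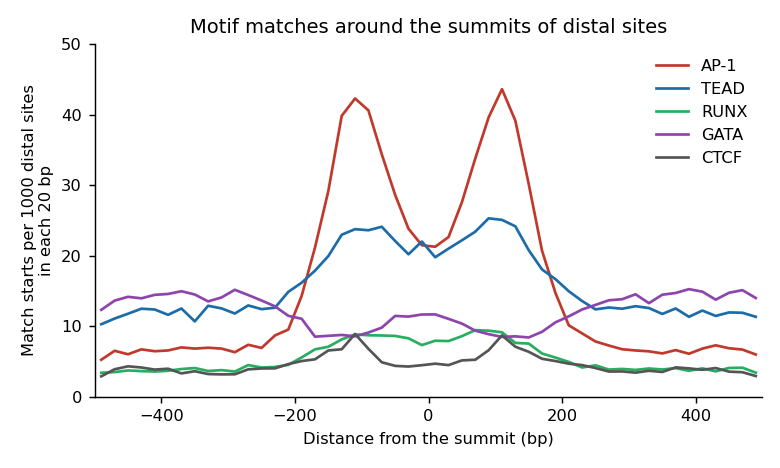
Starts of motif matches per 1000 distal shared sites in each 20 bp (y axis) by distance from the summit up to 500 bp (x axis), for AP-1, TEAD, RUNX, GATA and CTCF letters on either strand. AP-1 and CTCF matches have a maximum on each side between 100 and 120 bp and a dip at the summit.

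Promoter sites held other letters. NFY letters, like those printed for CAMTA1 and FAM117A, occurred within 100 bp of the summit in 16.3% of the 1000 strongest promoter sites, 4.41% of all promoter sites and 1.67% of their flanks. SP/KLF letters (GGGCGGGG) occurred in 16.5%, 13.0% and 1.35%, ETS letters (CCGGAAGT) in 4.80%, 2.44% and 0.116%, and NRF1 letters (GCGCATGCG) in 3.70%, 1.30% and 0.0122%. SP/KLF, ETS and NRF1 letters contain CpG, which is itself frequent in promoter sites, and the part of base composition in these shares was not tested. AP-1 letters occurred in 3.80% of the 1000 strongest promoter sites and 7.33% of all, the reverse of their order in distal sites.

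Of 19970 protein-coding genes, 13966 had a shared site overlapping the 1 kb around a TSS, 69.9%. The best site of these genes had a median percentile of 89.9, and 6957 genes (34.8%) had one above percentile 90. Genes were split by the highest CpG count among their promoters, counted from 250 bases before to 50 bases after each TSS. A shared site was present at 10.2% of the 1104 genes with 0 to 2 CpG, 28.4% of the 2821 with 3 to 9, 60.3% of the 2550 with 10 to 19, and 85.3% of the 13495 with 20 or more. Genes with more annotated TSSs have more chances in both counts.

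In gene families of general cell upkeep nearly all genes had an accessible promoter, against 69.9% of all protein-coding genes. A shared site was present at 83 of 84 ribosomal protein genes (all but RPL3L), 37 of 37 genes of mitochondrial complex I, 21 of 21 spliceosome genes, 35 of 35 aminoacyl-tRNA synthetase genes, 36 of 39 proteasome genes and 49 of 55 translation initiation genes. Their best sites had median percentiles between 94.0 (complex I) and 96.2 (spliceosome and ribosomal proteins). Examples are RPS3A at 19.2 and 21.5, PSMC5 at 18.9 and 22.1, NDUFA6 at 17.8 and 21.8, SF3A3 at 17.4 and 21.5 and EIF4A1 at 20.9 and 24.98. EIF3C and EIF3CL, without a site, are near-identical copies of each other. Reads of low mapping quality had been removed throughout, and whether this bears on their lack of a site was not tested.

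In other families the share of members with a shared site ranged from 86.6% to 6.01%, against 69.9% of all protein-coding genes. Zinc finger genes named ZNF, many of which encode repressors, had a site at 446 of 515 genes with a median percentile of 93.4. HOX genes, which encode body-axis regulators, had one at 26 of 39 (66.7%), close to the share of all genes. Only 1 of the 39 had a site above percentile 90, against 34.8% of all genes. Core histone genes had a site at 40 of 85, with the variants H2AZ2 (19.6 and 21.3) and H2AX (20.3 and 19.8) at the top. Protocadherin genes had one at 30 of 65, genes of keratins and keratin-associated proteins at 24 of 149, taste receptors at 3 of 27, defensins at 5 of 46 and olfactory receptors at 25 of 416. Histone, protocadherin and olfactory receptor genes have close relatives in the genome, and the place of their reads is less certain. The part of promoter CpG counts in the shares of these families and of the upkeep families was not tested.

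**Figure D5:**
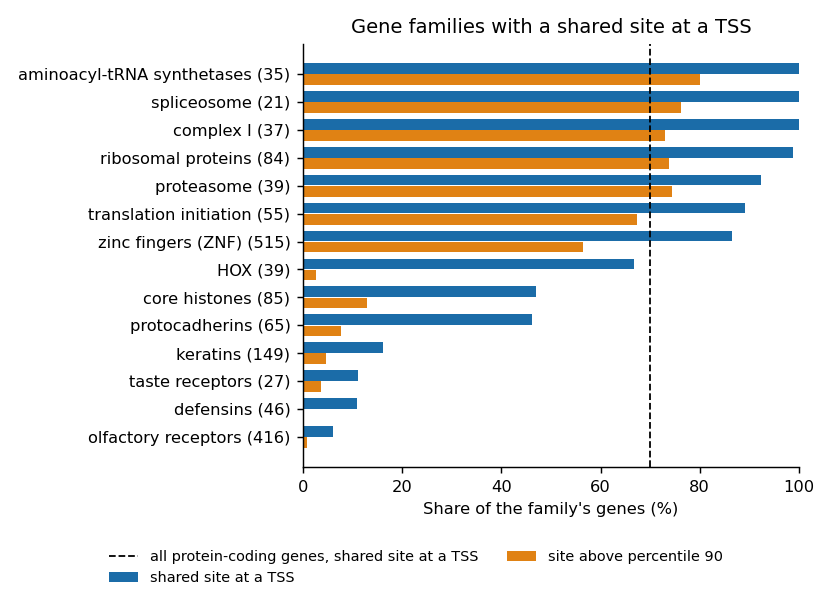
Share of the genes of each family (number of genes in brackets) with a shared site within 1 kb of a TSS (blue) and with one above percentile 90 (orange), in percent (x axis); the dashed line marks 69.9%, the share of all protein-coding genes. Families of general cell upkeep lie between 89.1% and 100%, and olfactory receptors at 6.01%.

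The marker lists covered the tissue of origin and other tissues. Of 20 osteoblast and mesenchymal genes, 16 (80.0%, against 69.9% of all protein-coding genes) had a shared site at a TSS. Their median percentile was 80.2, below the 89.9 of all genes with a site, and 4 of the 20 had a site above percentile 90, against 34.8%. The matrix genes COL1A1 (11.06 and 12.46), LOX (13.3 and 13.7) and SPARC (8.69 and 11.6) and the adhesion gene CDH11 (9.56 and 10.5) were the highest, and COL1A2, IBSP, TWIST1 and THY1 had none. RUNX2, the regulator of bone formation, had 3.55 and 14.5, so the libraries differed widely there. Genes marking other tissues split into 2 kinds. Blood genes had a site at 2 of 10, liver genes at 2 of 10, muscle genes at 2 of 8, pluripotency genes at 1 of 6 and endothelial genes at 2 of 6, with PTPRC, CD3E, ALB, HNF4A, MYOD1, POU5F1 and NANOG among those without. Epithelial genes had a site at 9 of 10 and neural genes at 9 of 10, among them CDH1 (14.3 and 8.13), EPCAM (10.1 and 13.3), the shared KRT8 and KRT18 site (11.2 and 13.8) and SLC17A7 (13.6 and 14.1). All these counts are by overlap with the 1 kb around a TSS. At SLC17A7, ELF3 and KRT5 only the edge of a site reached it, and the summit lay over 1 kb outside the gene. Those sites may belong to neighbouring sequence. Counted by overlap, promoter presence did not separate the mesenchymal list from the epithelial and neural lists. Median CpG counts at the promoters of these lists were 22.5, 21.5 and 30.5, against 6 in the blood list and 9 in the liver list, and their part in these counts was not tested.

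A list of 27 genes held AP-1, TEAD and RUNX family genes, YAP1 and WWTR1 with 3 of their target genes, and CTCF, NFYA, NRF1, YY1, SP1, CEBPB and MYC. A shared site was present at 26 of the 27, all but NRF1, against 69.9% of all protein-coding genes, and 10 had one above percentile 90, against 34.8%. Their median percentile was 83.3, against 89.9, and the median CpG count at their promoters was 38, against 28, whose part in these counts was not tested. The stress-responsive AP-1 family gene ATF3 had 18.4 and 20.2, JUN 15.4 and 17.1, and the YAP target ANKRD1 15.8 and 17.9. TEAD2 had 15.0 and 17.0 and SP1 17.6 and 18.6, while FOS had 4.99 and 4.87 and MYC 4.50 and 5.17. CEBPB, at 2.34 and 4.48, was the lowest of the 26. RUNX1 had 14.6 and 21.3 at its best TSS site.

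RUNX1 also held more sites than any other protein-coding gene, 74 summits within the gene and 1 kb on either side, over 1217 kb. RAD51B, a recombination repair gene, followed with 63, the splicing regulator gene RBFOX1 with 61, LRMDA with 50, and the synapse genes NRXN3 and SDK1 with 48 each. These genes are long, between 769 and 2474 kb in the 10 highest. LRMDA held its 50 sites with none at a TSS. Per length, among genes of at least 20 kb, KDM6B, which encodes a histone H3K27 demethylase, was the densest with 7 sites in 20.6 kb, and MTURN had 7 in 27.8 kb.

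In 30321 windows of 100 kb, 23.9% had no site. The windows ran over whole chromosomes, undetermined sequence included, so some of them could hold no site. The median of those with any was 3, and 869 windows (2.87%) had 10 or more and held 11.3% of all sites. Local background was taken at the shared sites. In windows with 10 or more sites it was typically 1.68 and 1.74 times the median over all shared sites in the 2 libraries. That background includes the reads of the sites themselves and the copy number of the cell line, and their part in the density was not tested.

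The densest window, with 21 sites, lay around LIF and OSM, which encode cytokines of the interleukin-6 family (chr22:30200001-30300000). Its background was 5.49 and 5.00 times the median. Of its sites 16 were distal and 18 were in all 6 other lists, and their percentiles ran from 3.596 to 96.5. The strongest, printed as the LIF window sequence, had 12.51 and 15.7 and lay 10824 bp from the nearest LIF TSS, in intergenic sequence. LIF and OSM had no site within 1 kb of a TSS by its summit, and the 2 promoter sites of the window were both at CASTOR1 (6.13 and 5.95, and 5.34 and 6.85).

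Further dense windows held genes of the matrix, of signalling and of the cell surface. The window of GPRC5A, which encodes an orphan receptor, and DDX47 had 19 sites and a background of 5.08 and 4.53 times the median, and its strongest site was the GPRC5A promoter (13.1 and 14.7). The GNG7 window had 18 sites and none at a protein-coding promoter. The LOXL1 window, named for an elastin crosslinking enzyme, had 18, as did the window of PRKCH, which encodes protein kinase C eta. The windows of ZNF205, ZNF213 and OR1F1 (19 sites), of the lncRNA genes NEAT1 and MALAT1 (18) and of PLEC, which encodes plectin (17), were also among the 10 densest. The NEAT1 and MALAT1 window had 0 sites at protein-coding promoters. The protein-coding gene FRMD8 reaches into it, with its TSSs at least 14717 bp from any of these sites. AP-1 letters occurred in 7 of 18 sites around PRKCH, 7 of 19 around GPRC5A, 5 of 18 around GNG7 and 4 of 18 around NEAT1 and MALAT1. They occurred in 3 of 21 around LIF, 3 of 17 around PLEC, and none of the 18 around LOXL1 or the 19 around ZNF205. The 18 around the HOXA genes, most of which lay at promoters, also held none. Over all sites the share was 25.02% in distal and 7.33% in promoter sites.

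The HOXA window had 18 sites, 13 of them at promoters, from HOXA4 to HOXA13, and its background was 1.58 and 1.72 times the median. None exceeded percentile 90, and the strongest was at HOXA5 (9.24 and 8.87).

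Density differed between chromosomes. It was highest on chromosomes 19, 22 and 17, with 52.6, 48.2 and 46.9 sites per Mb, which have 25.3, 11.4 and 14.3 protein-coding genes per Mb. It was lowest on X, 13 and 4, with 12.4, 16.4 and 19.7. X and 13 also had the lowest local backgrounds, 0.657 and 0.634 times and 0.667 and 0.710 times the median over all shared sites. The lowest background recovered in each library was 2.10 and 1.74, against medians of 3.195 and 2.79 over all shared sites. X lay at or near these lowest values in both libraries, and 13 lay near the lowest value in replicate 1. This limits how low their ratios could be. Apart from this limit the background moved broadly with the density, and the part of copy number was not tested.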

How the data were processed

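Chromatin accessibility of U2OS cells was measured by ATAC-seq with 50 bp paired-end reads. According to the methods and the submitters' processing notes, the authors trimmed adapters (cutadapt 1.9.1), aligned reads to hg38 (Bowtie2 2.4.5), removed duplicates, reads of mapping quality below 30 and blacklisted regions, and called peaks in each library separately (MACS2 2.2.7.1). The deposited lists give a fold enrichment (a ratio of pileup to local background), a −log10 p-value, a −log10 q-value and a score, which was not used. They reached down to a p-value near 0.01. Gaps in the numbering show 265 and 299 further records that were not analysed here.

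Records sharing an interval were joined, keeping the highest fold enrichment. Pileup and background were solved from fold and p-value (100% solved within 0.01), tested on simulated data. Sites were placed with GENCODE 44 on hg38. Python 3.11.15, pandas 2.3.3, SciPy 1.17.1 and pysam 0.24.0 were used. Named items were the 25 strongest sites, the 10 strongest distal sites, the 10 densest windows, clusters and genes, the 10 widest sites and the 5 longest stretches without a site, of which a few are not reported here. Sites, families, markers and motif letters were chosen with earlier results of these data known. Synthetase genes were limited to symbols ending in ARS1 or ARS2 and EPRS1, because the broader symbol rule also took other genes. No test was run, since no groups were compared, and 2 libraries give only their own 2 values. Alternatives were q-value limits, stricter overlap, single libraries and other promoter, window and motif settings.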

Additional observations from a re-analysis of the deposited data

How the results depend on the processing

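The number of shared sites was 86255 and, in the lists of single libraries, 178662 to 189651 intervals. The promoter share of all sites (19.8%) was 20.9% with q below 0.05, 21.9% with q of 0.01 or less, 21.7% with an overlap of 50% of both intervals, 23.6% within 2 kb, 25.1% with TSSs of all annotated genes, 13.0% with only annotated gene starts (added after seeing the data), and 12.9% to 13.5% in single libraries. For the 1000 strongest sites (61.0%) it was 67.9% with TSSs of all annotated genes, 52.8% with gene starts only and 54.7% to 62.0% in single libraries. The share of genes with a site (69.9%) was 68.7% and 67.4% with the q limits 0.05 and 0.01, 65.1% with the 50% overlap, 73.9% within 2 kb, 59.97% with gene starts only and 76.0% to 76.9% in single libraries. The AP-1 share of strong distal sites (42.9%) was 23.6% within 50 bp of the summit, 67.1% within 200 bp (added after seeing the data) and 37.6% to 47.0% in single libraries. The densest window (21 sites) had 25 to 29 intervals in single libraries. Covered sequence (49.7 Mb) was 43.4 Mb with q of 0.01 or less, 39.98 Mb with the 50% overlap and 60.1 to 67.2 Mb in single libraries. In all, 26 of the alternative values moved by more than the spread of the single libraries, or a count by over 1.5 times, and 24 did not. The causes were not tested. No paired analysis was possible because no result came from a test between groups. Sites of the bottom 10% rest on a median of 9 and 8 reads, so absence from the list does not show closed chromatin.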

Other observations

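Stitching sites whose summits lay within 12500 bp of each other gave 188 clusters of 10 or more sites. The one with the most covered sequence held 22 sites over 141 kb around IL17B, PCYOX1L and GRPEL2 on chromosome 5. The next held 16 sites around the keratin gene KRT80 on chromosome 12, whose promoter region had fold enrichments of 13.2 and 16.5. Clusters of 19 sites on chromosome 17 (chr17:72338823-72431248) and of 18 sites on chromosome 3 (chr3:16048681-16149311) held no TSS of a protein-coding gene, and all 18 on chromosome 3 were distal. Of all sites, 34.5% stood alone.

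Median width was 756 bp in the strongest of 20 rank bins and 317 bp in the weakest, yet the few widest sites were not among the strongest by fold enrichment. The widest, 3154 bp, lay 7242 bp from a TSS of TMTC1 and had fold enrichments of 3.88 and 3.49. The next, 2691 bp, lay in the imprinted gene PEG3 (5.03 and 6.68), and the linker histone gene H1-2 had 2200 bp (9.14 and 9.89). Fold enrichment is relative to a local background that includes a site's own reads. At PEG3 the pileups were 174 and 304 reads over backgrounds of 33.8 and 44.7. The median backgrounds over all shared sites were 3.195 and 2.79. The part of the background in the rank of wide sites was not tested. The longest stretches without a site measured 5.40 Mb on chromosome 18, 4.07 Mb on 17, 3.81 Mb on X, 3.57 Mb on 5 and 3.35 Mb on 11. They held 0 protein-coding genes. The stretch on 17 held 4 intervals of replicate 1 and 6 of replicate 2, which were not shared, and each of the others held 0 in both lists. Reads that mapped poorly or to blacklisted regions had been removed there as elsewhere, and the part of this was not tested.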
